A study of Rattus norvegicus with 12 samples.

Results

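The left ventricle (LV) of rats kept at 10% O2 for 2 weeks was compared with the LV of rats kept in room air. The genes described were the 11355 of 23526 named genes that reached 1 TPM (a transcript level corrected for transcript length and scaled to the library) in at least 3 of the 6 LV libraries. This rule used detection and not the difference between the groups, although 39 genes met it through the hypoxic libraries alone and 11 through the normoxic libraries alone. All 11355 genes passed the expression filter of the test.

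The hypoxic group, LV_H, was 3 adult male Sprague-Dawley rats of 3 to 4 months that spent 2 weeks at 10% O2 in a hypobaric chamber (replicates 1, 2 and 4). The normoxic group, LV_N, was 3 rats of the same strain, sex and age in room air (replicates 1, 2 and 3). Each library came from polyadenylated RNA of the LV free wall of 1 rat, after the atria had been cut away, so the groups were unpaired and a replicate number named different rats in LV_H and LV_N. The right ventricle (RV) of the same 6 rats gave another 6 libraries, RV_H and RV_N. They entered the fit and its estimate of the spread, without a term for the rat, so the LV calls depend on them too. They are also set beside the LV values and used to test the difference between the ventricles.

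The wall held many cell types, and in such bulk tissue fewer cells of a type and less RNA per cell cannot be told apart. Estimated counts per library summed to between 22538944 and 24247698 in LV_H and between 26294498 and 28804367 in LV_N. Pearson correlations of log2 levels ran from 0.961 to 0.974 within the groups and from 0.952 to 0.969 between them. Markers of cardiac muscle were present, although they do not set the LV apart from the RV. Of 20 cardiac myocyte genes 19 were among the 11355. Tnni3, the cardiac troponin I, had 8405, 9369 and 10489.8 TPM in LV_H and 7874, 9183 and 8255 TPM in LV_N. Markers of B and plasma cells were nearly absent, with 1 of 9 genes detected. A pair of LV_H libraries stood apart from the rest. LV_H replicate 1 was high in matrix, fibroblast and atrial genes: Myl7, the atrial myosin light chain, had 165, 4.11 and 9.27 TPM in LV_H, against 2.88, 7.12 and 6.03 TPM in LV_N, and Postn, which activated fibroblasts secrete into the matrix, had 71.5, 2.84 and 5.45 TPM in LV_H, against 1.39, 0.788 and 0.994 TPM in LV_N. LV_H replicate 2 was highest in hemoglobin and other red cell transcripts, whose summed level over 8 genes was 7435, 30237 and 16285 TPM in LV_H, against 3647, 5807 and 4482 TPM in LV_N. The share of transcripts from the mitochondrial genome was 39.68%, 42.35% and 38.76% in LV_H, against 50.59%, 46.95% and 48.03% in LV_N, a mean difference of -8.3 percentage points (two-sided exact permutation test, p = 0.1, the smallest that 3 libraries against 3 allow). The number of genes at 1 TPM or more was 11392 ± 489 in LV_H and 11115 ± 67 in LV_N (SD, n = 3 each; two-sided exact permutation test, p = 0.5).

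Cardiac muscle burns mainly fatty acids in its mitochondria and depends on a steady supply of oxygen. When oxygen is scarce, hypoxia-inducible factors (HIF) switch on genes for glycolysis, red cell production and vessel growth. A ventricle under load returns in part to a fetal program, in which natriuretic peptides, stretch-sensed Z-disc proteins and the fetal myosin rise and oxidative genes fall. Chronic hypoxia constricts the arteries of the lung and loads the RV directly, while the LV works against systemic pressure with blood that carries less oxygen and, later, more red cells.

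Hypoxia changed 182 of the 11355 genes in the LV, 91 higher and 91 lower in LV_H at an adjusted p under 0.05 (edgeR's quasi-likelihood test, Benjamini-Hochberg over 13756 genes). These were 0.801% of the members in each direction and 1.6% together, beside 0.698% higher, 0.669% lower and 1.37% together of all genes tested. The changes were mostly modest: the median log2 fold change was 0.82 for the genes that rose and -0.72 for those that fell, and 35 of the first and 27 of the second passed 2-fold. Past 4-fold were 15 genes that rose and 2 that fell. In 177 of the 182 the LV_H libraries did not overlap the LV_N libraries in TPM. That split was common among all members on this scale, at 17.7% with LV_H above and 3.36% with LV_H below, and at 10.5% and 12.4% once the libraries were scaled by TMM. At an unadjusted p under 0.05, 1010 of the 11355 members were higher (8.89%) and 1119 lower (9.85%), and the unadjusted counts given for the lists below stand against these shares. The called counts of the lists stand against 0.801% of the members in each direction. Their counts of positive and negative fold changes stand against a median of -0.00 over the members. Scaling to library totals alone shifted the median of the log2 fold changes to 0.17 over all genes tested and 0.16 over the members, beside 0.01 and -0.00 with TMM, and the calls to 174 higher and 28 lower. Every fold change below is relative to the TMM scale unless library totals are named. List medians given with library totals stand against 0.17 over all genes tested.

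The number of calls leaned on each library. It was 74 higher and 26 lower without LV_H replicate 1, 42 and 26 without LV_H replicate 2, and 89 and 68 without LV_H replicate 4. It was 17 and 13 without LV_N replicate 1, 41 and 34 without LV_N replicate 2, and 25 and 16 without LV_N replicate 3. Fitted on the 6 LV libraries alone, without the RV libraries, 27 of the 182 genes kept their call. None of the 182 genes changed direction under any of the 19 alternatives that tested it, and 13 stayed past the threshold under all 19. The 12 of these with a gene symbol were Tgm1, Inha, Bok, Myc, Enah, Klhdc8b, Gpx1 and Zyx, which rose, and Fam131c, Gpr22, Gpd1 and RT1-DMb, which fell.

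**Figure D1:**
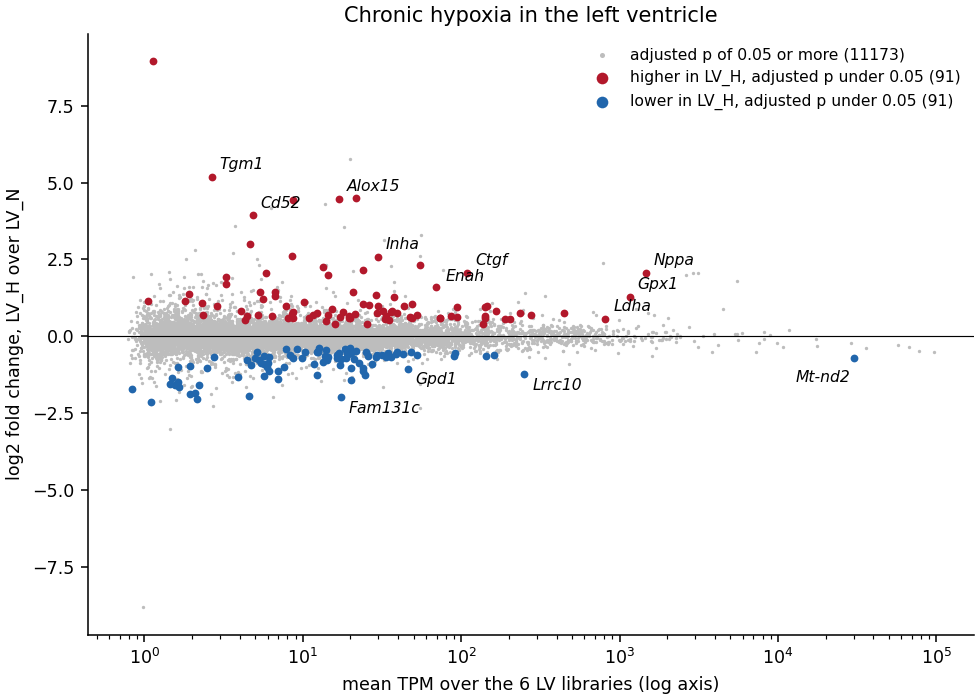
Log2 fold change of LV_H over LV_N (y axis) against the mean TPM of the 6 LV libraries (x axis, log scale) for 11355 genes, 1 point per gene. The 91 genes higher in LV_H (red) and the 91 lower (blue) at adjusted p under 0.05 span the range of levels up to the mitochondrial transcript Mt-nd2. Selected genes are labelled, among them Tgm1 and Inha.

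Secreted and membrane-bound growth regulators were among the genes that rose most. Inha encodes the alpha subunit of inhibin, a secreted antagonist of activin. It had 64.3, 42 and 50.2 TPM in LV_H, against 5.87, 9.26 and 8.03 TPM in LV_N, a rise in all 3 hypoxic libraries of about 6-fold (log2 fold change 2.59 ± 0.17, adjusted p = 5.31e-05; SE, n = 3 each, here and below). Nppa, the precursor of atrial natriuretic peptide, had 1781, 3513 and 1839 TPM in LV_H, against 386, 763 and 477 TPM in LV_N (log2 fold change 2.05 ± 0.40, adjusted p = 0.0378). Every LV_H library lay above every LV_N library, and LV_H replicate 2 was the highest. Ctgf, a matricellular growth factor that responds to stretch, had 178, 147 and 214 TPM in LV_H, against 40.5, 30.5 and 44 TPM in LV_N (log2 fold change 2.07 ± 0.32, adjusted p = 0.0144). Hbegf, a membrane-anchored EGF receptor ligand, had 8.81, 9.27 and 11 TPM in LV_H, against 3.19, 3.19 and 4.34 TPM in LV_N (log2 fold change 1.30 ± 0.24, adjusted p = 0.032), without overlap. Tnfrsf12a, the receptor for the cytokine TWEAK, rose 4.93-fold, with 78.6, 123 and 76.3 TPM in LV_H, against 16.4, 18.4 and 17.4 TPM in LV_N (log2 fold change 2.30 ± 0.31, adjusted p = 0.00818). Sfrp1, a secreted Wnt antagonist named after its values were seen, also rose (log2 fold change 1.44 ± 0.29, adjusted p = 0.0431). With 1 LV library left out at a time, Inha kept its call in 6 of 6 fits, Tnfrsf12a in 5, Ctgf in 3, Nppa in 2, Hbegf in 1 and Sfrp1 in 1. Lost calls had adjusted p values of up to 0.151.

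Most relatives of these genes did not pass the test. Nppb, the precursor of brain natriuretic peptide, had 1186, 2081 and 1917 TPM in LV_H, against 638, 762 and 687 TPM in LV_N, with no overlap but an adjusted p of 0.179 (log2 fold change 1.21 ± 0.43). Fstl3, which binds activin, had 7.6, 6.1 and 4.99 TPM in LV_H, against 2.68, 2.5 and 1.67 TPM in LV_N (log2 fold change 1.29 ± 0.28, adjusted p = 0.0535). Among 11 members of the inhibin and activin list Inha was the only call, and the list median was -0.10, beside 0.01 over all genes tested. Of 19 genes of the TGF-beta family none was called by edgeR's quasi-likelihood or likelihood ratio test or by DESeq2, 1 was higher at an unadjusted p under 0.05, and the median was 0.07. That gene was Tgfb2, with 11.7, 11.8 and 7.36 TPM in LV_H, against 6.65, 3.64 and 4.24 TPM in LV_N (log2 fold change 0.93 ± 0.35, adjusted p = 0.206). Igf1, the insulin-like growth factor, had 15.2, 7.81 and 11.1 TPM in LV_H, against 6.18, 6.14 and 3.71 TPM in LV_N and did not pass either (log2 fold change 0.90 ± 0.29, adjusted p = 0.151). A growth factor of cardiac muscle, Fgf16, was called in the other direction (named after its values were seen): it had 7.24, 9.11 and 9.58 TPM in LV_H, against 14, 14.2 and 16.3 TPM in LV_N (log2 fold change -0.91 ± 0.19, adjusted p = 0.0449), without overlap, and kept its call in 0 of 6 fits with a library left out.

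Tgm1 had the largest fold rise of the 12 leading genes. It encodes a membrane-bound transglutaminase best known for cross-linking proteins in the epidermis. It had 7.11, 3.32 and 5.23 TPM in LV_H, against 0.101, 0.101 and 0.142 TPM in LV_N (log2 fold change 5.18 ± 0.44, adjusted p = 5.34e-04), and it kept its call in 6 of 6 fits with a library left out. The LV_N levels were near the floor, so the size of the fold is uncertain. They stood at 2.6, 2.7 and 4.1 estimated counts, which are TPM times a constant per library and not numbers of reads. The gene was a member through the LV_H libraries alone. Tgm2, the widely expressed transglutaminase, had 132, 126 and 102 TPM in LV_H, against 57.5, 55 and 61.5 TPM in LV_N. Its groups did not overlap, while its adjusted p was 0.0713 (log2 fold change 0.90 ± 0.22).

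**Figure D2:**
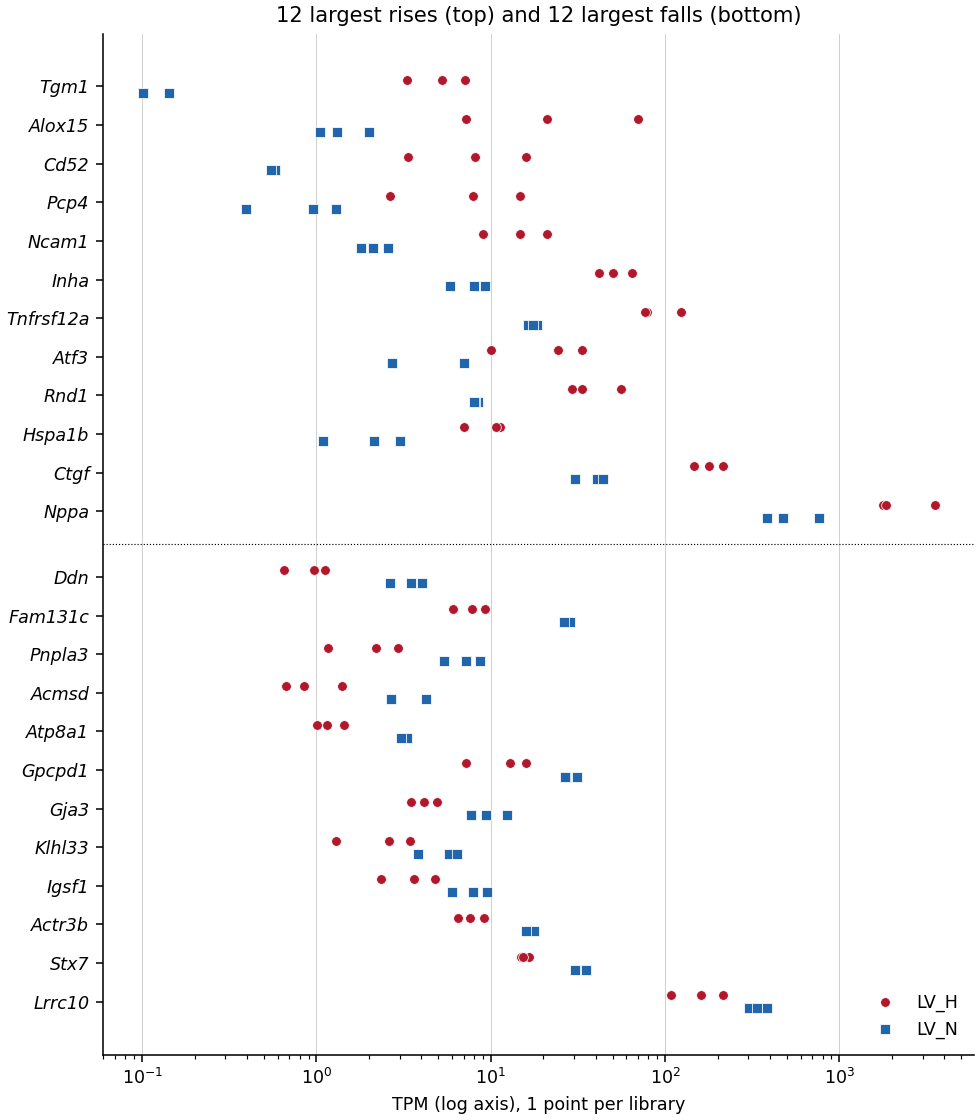
TPM (x axis, log scale) of the 12 genes with the largest rise (upper block) and the 12 with the largest fall (lower block), 1 point per library, LV_H as red circles above LV_N as blue squares. The rule that chose the 24 genes required that the groups not overlap, so that split is no result, and Alox15 spreads from 7.2 to 69.6 TPM within LV_H.

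Several genes of the Z-disc and the actin cytoskeleton rose. Of 28 members of the mechanical stress list 5 rose and none fell, 23 had a positive fold change, and the list median was 0.26, beside 0.01 over all genes tested. Flnc, the muscle filamin that crosslinks actin at the Z-disc, had 44.6, 64 and 54.4 TPM in LV_H, against 18.9, 25.4 and 17.2 TPM in LV_N (log2 fold change 1.29 ± 0.22, adjusted p = 0.0222). Zyx, a sensor of strained actin fibres, had 46.4, 34.1 and 35.3 TPM in LV_H, against 20.6, 21.1 and 19.8 TPM in LV_N (log2 fold change 0.75 ± 0.09, adjusted p = 0.00747). The PDZ and LIM domain proteins Pdlim5 and Pdlim7, which tie signalling enzymes to actin, rose by 0.60 ± 0.11 and 0.57 ± 0.07 on the log2 scale. In each of these 4 genes every LV_H library lay above every LV_N library. Enah, an actin elongation factor placed in the list of fetal and hypertrophy genes, had 99.6, 126 and 93 TPM in LV_H, against 31.9, 30.1 and 34.2 TPM in LV_N, a 3.04-fold rise (log2 fold change 1.60 ± 0.18, adjusted p = 0.00393). Outside the lists, and named after their values were seen, Pdlim3 (1.04 ± 0.15), the filamin-interacting Filip1 (0.70 ± 0.09), the muscle kinase Speg (0.64 ± 0.13), the myosin light chain Myl6 (0.75 ± 0.10), the fast-muscle myosin-binding protein Mybpc2 (1.38 ± 0.21), the fibronectin receptor subunit Itga5 (0.59 ± 0.12) and the tubulins Tuba1b (0.56 ± 0.12) and Tubb5 (0.63 ± 0.12) were higher in LV_H, with adjusted p from 0.00818 for Myl6 and Filip1 to 0.0488 for Tuba1b. Rnd1, which loosens actin fibres, had 29.4, 55.7 and 33.4 TPM in LV_H, against 8.5, 8.13 and 8.03 TPM in LV_N (log2 fold change 2.17 ± 0.35, adjusted p = 0.0179). Enah, Zyx, Pdlim7, Filip1 and Myl6 kept their calls in 6 of 6 fits with a library left out, Pdlim3 in 5, Mybpc2 in 4, Flnc in 3, Rnd1 in 3, Pdlim5, Speg, Tuba1b and Tubb5 in 1 each and Itga5 in 0. Lost calls reached an adjusted p of 0.158. The matrix and fibroblast genes that were high in LV_H replicate 1 moved with the tubulins, which were highest in that library (Tuba1b had 318, 191 and 205 TPM in LV_H, against 145, 133 and 149 TPM in LV_N). Their part in the result was not tested.

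Of the 16 fetal and hypertrophy genes 2 rose, Nppa and Enah, none fell, and 14 had a positive fold change (median 0.64). The sarcomeric members were more variable. Acta1, the skeletal alpha-actin of the fetal heart, had 1088, 2879.8 and 1055 TPM in LV_H, against 1010.2, 786 and 809 TPM in LV_N (log2 fold change 0.88 ± 0.54, adjusted p = 0.419), with LV_H replicate 2 far above the rest. Myh7, the slow fetal myosin, had 1568, 1546 and 2778 TPM in LV_H, against 1108, 919 and 1151 TPM in LV_N (log2 fold change 0.74 ± 0.37, adjusted p = 0.323), with LV_H replicate 4 highest. Both groups were split without overlap in these genes, and the spread within LV_H was wide. Without LV_H replicate 2 the list median was 0.23. Lrrc10, a heart-restricted protein that binds actin, fell: it had 161, 108 and 215 TPM in LV_H, against 301, 382 and 338 TPM in LV_N (log2 fold change -1.25 ± 0.17, adjusted p = 0.0101) and kept its call in 6 of 6 fits with a library left out. The 19 cardiac myocyte markers had a median of -0.06 and no call by any of edgeR's quasi-likelihood and likelihood ratio tests and DESeq2, with 1 gene at an unadjusted p under 0.05 in each direction. By limma on log2(TPM + 1) 1 was called higher. The median was 0.09 there and with library totals, so its sign depended on the scaling. With library totals it lay below the median of 0.17 over all genes tested, and with TMM below that of 0.01.

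**Figure D3:**
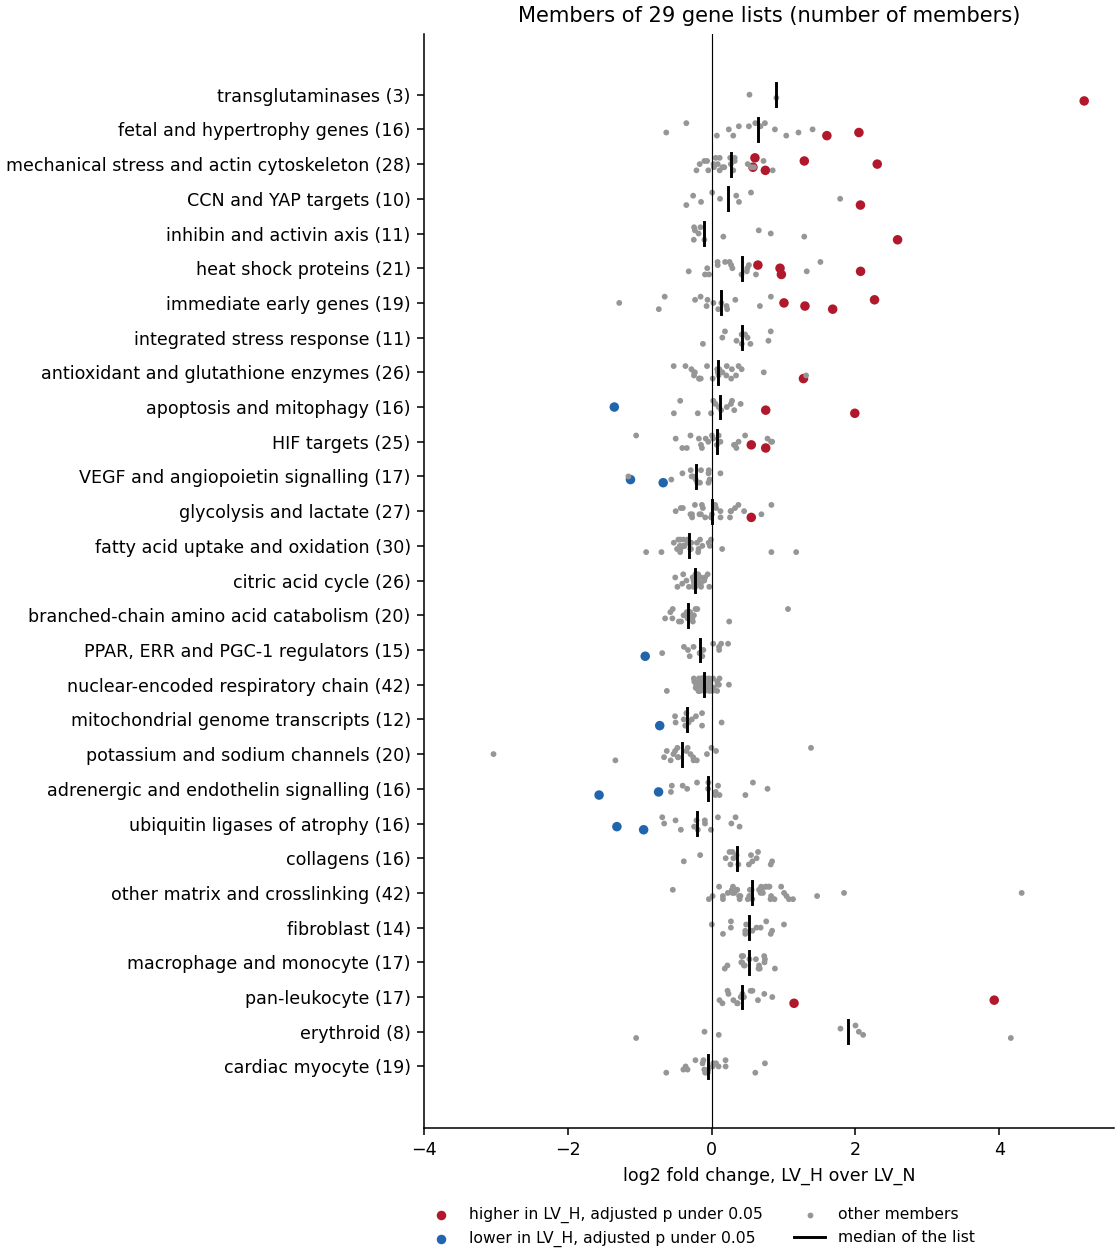
Log2 fold change of LV_H over LV_N (x axis) for the members of 29 gene lists (rows, with the number of members), 1 point per gene, red for genes higher and blue for genes lower at adjusted p under 0.05 and grey for the rest. Black bars are list medians, which run from 1.90 for erythroid genes to -0.41 for potassium and sodium channels.

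Several protein-folding and early stress genes rose. Of 21 heat shock proteins 4 rose and none fell, 17 had a positive fold change, and the median was 0.41. Hspa1b, the inducible HSP70, had 11.3, 10.7 and 6.98 TPM in LV_H, against 1.09, 3.01 and 2.14 TPM in LV_N (log2 fold change 2.07 ± 0.39, adjusted p = 0.0325). Its near-identical copy Hspa1a had 12.7, 11.2 and 7.98 TPM in LV_H, against 3.47, 4.36 and 2.21 TPM in LV_N (log2 fold change 1.51 ± 0.36, adjusted p = 0.068), and reads could have been split between them. Dnajb5, a cochaperone of HSP70, had 59.8, 54.1 and 63.9 TPM in LV_H, against 26.5, 27.2 and 28.1 TPM in LV_N (log2 fold change 0.97 ± 0.16, adjusted p = 0.0177). The chaperone Hsp90aa1 rose by 0.95 ± 0.19 and its partner Hsph1 by 0.64 ± 0.13 on the log2 scale. Hspb1, a small heat shock protein that protects actin, had 389, 744 and 348 TPM in LV_H, against 191, 204 and 160.5 TPM in LV_N and did not pass (log2 fold change 1.32 ± 0.32, adjusted p = 0.0715). Hspb6, a small heat shock protein of muscle, had 1464, 2109.7 and 1289.8 TPM in LV_H and 1404, 1393 and 1453 TPM in LV_N (log2 fold change 0.08 ± 0.23, adjusted p = 0.893). Hspa1l, an HSP70 relative named after its values were seen, rose as well (log2 fold change 1.45 ± 0.19, adjusted p = 0.00818) and kept its call in 6 of 6 fits with a library left out, beside 2 for Dnajb5, 2 for Hspa1b and 1 each for Hsp90aa1 and Hsph1. Lost calls reached an adjusted p of 0.138, and without LV_H replicate 2 none of the 21 was called, as against 1 without LV_H replicate 1.

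Among 19 immediate early genes 4 rose and none fell (median 0.13). Myc, the growth-promoting transcription factor, had 5.96, 3.72 and 5.77 TPM in LV_H, against 1.52, 1.45 and 1.3 TPM in LV_N (log2 fold change 1.68 ± 0.17, adjusted p = 0.00164). Atf3, a stress-induced repressor, had 24.4, 10.0 and 33.5 TPM in LV_H, against 2.7, 6.98 and 2.7 TPM in LV_N, and its adjusted p of 0.0497 lay at the threshold (log2 fold change 2.27 ± 0.48). Ier5, a regulator of the heat shock response, rose by 1.00 ± 0.19 on the log2 scale, and Hbegf, described above, was the fourth. Of 11 genes of the integrated stress response none was called by the quasi-likelihood test, 4 were higher at an unadjusted p under 0.05, and the likelihood ratio test called 1 and DESeq2 2. Atf4, its central transcription factor, had 144, 119 and 126 TPM in LV_H, against 87, 88.6 and 85.5 TPM in LV_N (log2 fold change 0.42 ± 0.09, adjusted p = 0.059), without overlap. Ppp1r15a, which ends that response by restoring translation, was higher in LV_H (named after its values were seen; log2 fold change 0.83 ± 0.14, adjusted p = 0.0179). Gpx1, the glutathione peroxidase that removes hydrogen peroxide, was the only call among 26 antioxidant genes (median 0.09). It had 1669, 1658 and 1752 TPM in LV_H, against 599, 704 and 594 TPM in LV_N (log2 fold change 1.28 ± 0.11, adjusted p = 6.57e-04), a 2.42-fold rise with little spread in either group. Without LV_H replicate 2 the quasi-likelihood test called 1 of the 19 immediate early genes. Leaving out 1 library at a time kept Myc and Gpx1 in 6 of 6 fits, Ppp1r15a in 4, Ier5 in 1 and Atf3 in 1 (lost calls up to an adjusted p of 0.173).

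Of the genes that HIF is known to induce, 25 were members and 2 of these rose, Ldha and Bnip3, and none fell, with 9 genes at an unadjusted p under 0.05, 7 of them higher, and a median of 0.07, beside 0.01 over all genes tested. Ldha, which turns pyruvate into lactate, had 1067, 977 and 978 TPM in LV_H, against 599, 609.7 and 652 TPM in LV_N (log2 fold change 0.55 ± 0.10, adjusted p = 0.032). Bnip3, a mitophagy receptor of the BCL2 family, had 273, 316 and 325 TPM in LV_H, against 152, 166 and 178 TPM in LV_N (log2 fold change 0.75 ± 0.14, adjusted p = 0.032). In both genes every LV_H library lay above every LV_N library. P4ha1, a collagen prolyl hydroxylase, had 29.9, 15.2 and 16.7 TPM in LV_H, against 11.2, 10.1 and 8.83 TPM in LV_N and an adjusted p of 0.0557 (log2 fold change 0.84 ± 0.18), with LV_H replicate 1 highest. The vessel growth factor Vegfa had 105, 110.4 and 98.8 TPM in LV_H and 104, 111 and 101 TPM in LV_N (log2 fold change -0.15 ± 0.14, adjusted p = 0.613), and the groups overlapped. Tfrc, the transferrin receptor, had 10.1, 6.89 and 9.28 TPM in LV_H, against 17, 10.1 and 21.3 TPM in LV_N (log2 fold change -1.05 ± 0.28, adjusted p = 0.0955). Of 8 HIF subunits and oxygen sensors none was called by the quasi-likelihood test, the likelihood ratio test or DESeq2, and 3 had an unadjusted p under 0.05, 1 of them higher. By limma on log2(TPM + 1) 1 was called higher. Without LV_H replicate 2 no HIF target was called, Ldha and Bnip3 kept their calls in 1 of 6 fits each, and their adjusted p reached 0.112 and 0.121.

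The sequences before these start sites are shown because Ldha and Bnip3 were the called HIF targets and Ctgf the called gene of the CCN family. Of the called chaperones Hsph1 is shown, and no other matched called gene had a heat shock element in its window. RefSeq (rat build GRCr8, which is not the build the study used) gave 1 window of 300 bases, 250 before and 50 after the start site, for 127 of the 182 called genes, 60 higher and 67 lower. 7 of these matched through an older symbol, such as Ctgf for Ccn2. The windows below run from 5′ to 3′ on the strand of the gene. Capitals mark ACGTG on either strand, the core that HIF binds, in Ldha (chr1:106507842-106508141, plus strand) and Bnip3 (chr1:203154913-203155212, minus strand), CATTCC on either strand, the M-CAT motif of TEAD factors, in Ctgf (chr1:22624565-22624864, minus strand), and the heat shock element (3 repeats of GAA in alternating orientation, with 2 free bases between them) on either strand in Hsph1 (chr12:10427118-10427417, plus strand).
Ldha: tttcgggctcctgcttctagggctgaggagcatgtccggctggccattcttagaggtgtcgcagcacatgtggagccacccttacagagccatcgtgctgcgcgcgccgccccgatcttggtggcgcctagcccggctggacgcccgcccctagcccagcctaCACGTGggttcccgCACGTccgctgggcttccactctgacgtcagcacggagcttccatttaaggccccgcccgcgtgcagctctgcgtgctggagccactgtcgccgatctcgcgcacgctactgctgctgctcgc
Bnip3: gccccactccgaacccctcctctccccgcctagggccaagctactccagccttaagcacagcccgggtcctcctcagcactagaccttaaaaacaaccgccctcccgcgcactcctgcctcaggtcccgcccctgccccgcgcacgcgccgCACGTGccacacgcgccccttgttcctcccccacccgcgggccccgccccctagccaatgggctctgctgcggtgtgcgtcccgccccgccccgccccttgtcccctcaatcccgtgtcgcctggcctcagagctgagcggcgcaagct
Ctgf: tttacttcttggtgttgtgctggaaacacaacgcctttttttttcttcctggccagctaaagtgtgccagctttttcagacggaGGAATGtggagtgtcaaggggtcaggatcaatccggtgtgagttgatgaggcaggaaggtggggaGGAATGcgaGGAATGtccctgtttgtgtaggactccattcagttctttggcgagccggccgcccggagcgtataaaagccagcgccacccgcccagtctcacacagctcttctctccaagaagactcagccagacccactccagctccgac
Hsph1: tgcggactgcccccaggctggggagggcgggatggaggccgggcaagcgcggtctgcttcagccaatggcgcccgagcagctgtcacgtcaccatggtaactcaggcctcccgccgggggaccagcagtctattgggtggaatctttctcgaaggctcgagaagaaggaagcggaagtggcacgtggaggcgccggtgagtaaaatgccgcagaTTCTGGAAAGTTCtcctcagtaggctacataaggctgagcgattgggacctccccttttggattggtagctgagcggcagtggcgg
The Ldha window held 3 matches to the HIF core and the Bnip3 window 2, with a palindrome counted on both strands, and the Ctgf window held 3 matches to the M-CAT motif. The HIF core occurred in 22 of 60 windows of genes higher in LV_H and in 19 of 67 of genes lower in LV_H (36.7% and 28.4%), beside 19.3% of all 33469 windows. The M-CAT motif occurred in 8 and 9 windows (13.3% and 13.4%), beside 14.2%. The cAMP response element TGACGTCA occurred in 7 and 3 windows (11.7% and 4.48%), beside 1.83%. The heat shock element occurred in 1 window of a gene that rose, that of Hsph1, and in none of a gene that fell (1.67% and 0%), beside 0.798%. The CArG box, searched by name, occurred in 1 and 1 (1.67% and 1.49%), beside 1.64%, and TNAAGGTCA, the site of estrogen-related receptors, in 1 and 2 (1.67% and 2.99%), beside 1.2%. None of these motifs contains another, and the counts are descriptions with no test. The 33469 windows also cover genes that were not members and genes with several windows, so their shares are not a matched background. The share over the members alone was not counted, so no enrichment can be read from these values.

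Angiogenic signalling leaned the other way. Of 17 members of the VEGF and angiopoietin list 2 fell and none rose, 16 had a negative fold change, and the median was -0.22 (-0.07 with library totals). Nrp1, a coreceptor for VEGF, had 26.8, 21.4 and 23.2 TPM in LV_H, against 30.2, 33.7 and 38.5 TPM in LV_N (log2 fold change -0.68 ± 0.09, adjusted p = 0.00903), and it kept its call in 6 of 6 fits with a library left out. Over all 19 alternatives Nrp1 kept its call in 14, with an adjusted p of up to 0.107. Apln, the vasoactive peptide apelin, had 6.11, 2.71 and 3.72 TPM in LV_H, against 8.25, 6.5 and 9.21 TPM in LV_N (log2 fold change -1.13 ± 0.24, adjusted p = 0.0493), and it kept its call in 1, with adjusted p of up to 0.158. In both genes every LV_H library lay below every LV_N library. Angpt1, the ligand that steadies vessels through Tie2, had 5.6, 1.96 and 6.54 TPM in LV_H, against 5.97, 9.11 and 12.6 TPM in LV_N: LV_H replicate 4 lay above the lowest LV_N library, LV_H replicate 2 was the lowest, and the difference did not pass (log2 fold change -1.16 ± 0.32, adjusted p = 0.106). The main VEGF receptor, Kdr, had 21.2, 15.7 and 16.5 TPM in LV_H and 16.5, 20.9 and 20.9 TPM in LV_N (log2 fold change -0.29 ± 0.12, adjusted p = 0.257). The 15 endothelial markers had a median of 0.02 and no call in the same test, the likelihood ratio test or DESeq2, and 5 had an unadjusted p under 0.05, 3 of them higher.

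Genes of mitochondrial fuel use mostly had small negative fold changes. In fatty acid uptake and oxidation 27 of 30 genes had a negative fold change and the median was -0.32, in branched-chain amino acid catabolism 18 of 20 and -0.32, and in the citric acid cycle 26 of 26 and -0.23. With library totals these medians were -0.18, -0.17 and -0.07. None of these genes was called by the quasi-likelihood test, where 15, 9 and 8 were lower and 1, 1 and 0 higher at an unadjusted p under 0.05, beside 9.85% lower and 8.89% higher over all members. The likelihood ratio test called 5, 2 and 1 of them lower and DESeq2 6, 4 and 1. Hadha, a subunit of the trifunctional enzyme of beta-oxidation, had 219.8, 191 and 255 TPM in LV_H, against 248, 277 and 286 TPM in LV_N (log2 fold change -0.44 ± 0.14, adjusted p = 0.147). Acadm, the medium-chain dehydrogenase, had 574, 559 and 687 TPM in LV_H, against 694, 700.3 and 772 TPM in LV_N (log2 fold change -0.40 ± 0.16, adjusted p = 0.225), without overlap. Pdk4, which blocks pyruvate from entering the mitochondria's oxidation, was among the 3 positive genes, with 90.6, 78.7 and 116 TPM in LV_H, against 34.3, 77.1 and 32.9 TPM in LV_N (log2 fold change 0.83 ± 0.35, adjusted p = 0.26). The 42 nuclear-encoded respiratory chain genes had a median of -0.11, beside 0.01 over all genes tested. With library totals it was 0.04, beside 0.17, so the sign depended on the scaling while the list lay below all genes in both. None was called by the quasi-likelihood test, the likelihood ratio test or DESeq2, and 1 was lower at an unadjusted p under 0.05.

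Transcripts of the mitochondrial genome had a median of -0.34 over 12 genes. Mt-nd2, a subunit of complex I, was the call among them: it had 25072, 23846 and 23652 TPM in LV_H, against 39275, 34089 and 34628 TPM in LV_N (log2 fold change -0.72 ± 0.15, adjusted p = 0.0486), and it kept its call in 0 of 6 fits with a library left out (adjusted p up to 0.155). Mt-co1, a subunit of cytochrome oxidase, had 85206, 88422 and 79734 TPM in LV_H, against 114882, 110726 and 99520.0 TPM in LV_N (log2 fold change -0.50 ± 0.17, adjusted p = 0.151), also without overlap. Of 15 regulators of the PPAR, ERR and PGC-1 families 1 fell (median -0.17, and 0.02 with library totals). This was Esrrb, an estrogen-related receptor, with 4.28, 2.52 and 3.73 TPM in LV_H, against 5.04, 5.36 and 7.36 TPM in LV_N (log2 fold change -0.93 ± 0.17, adjusted p = 0.0283), called in 1 of 6 fits with a library left out. The coactivator Ppargc1a, a driver of mitochondrial genes, had 6.53, 4.2 and 8.85 TPM in LV_H, against 8.71, 8.64 and 10.8 TPM in LV_N (log2 fold change -0.69 ± 0.23, adjusted p = 0.159). LV_H replicate 2 was the lowest library in Esrrb and Ppargc1a, and the red cell transcripts that were highest in that library moved with it. Their part in the result was not tested.

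Single enzymes of lipid and intermediary metabolism were among the genes that fell, and those outside the lists are named after their values were seen. Gpd1, the cytosolic glycerol-3-phosphate dehydrogenase, had 32.8, 27.3 and 35.7 TPM in LV_H, against 61.8, 60.2 and 57.1 TPM in LV_N (log2 fold change -1.06 ± 0.13, adjusted p = 0.00747). It kept its call in 6 of 6 fits with a library left out, and its relative Gpd1l fell less (log2 fold change -0.64 ± 0.13). Pnpla3, a lipase of lipid droplets, had 2.94, 1.16 and 2.2 TPM in LV_H, against 8.65, 5.41 and 7.2 TPM in LV_N (log2 fold change -1.96 ± 0.33, adjusted p = 0.0187). Dgat1, which makes triglyceride, had 19.1, 12.6 and 19.6 TPM in LV_H, against 29.8, 27.5 and 26.8 TPM in LV_N (log2 fold change -0.89 ± 0.15, adjusted p = 0.0197). The groups did not overlap in Gpd1 and Dgat1, while the rule that chose Pnpla3 as a leading fall required it. Further genes that fell were the peroxisomal Ehhadh (-1.03), malic enzyme Me1 (-0.53), the alanine transaminase Gpt2 (-0.96), the mitochondrial dehydrogenase Adhfe1 (-1.05), the sterol hydroxylase Cyp27a1 (-0.63), Acmsd of the kynurenine pathway (-1.86), Gpcpd1, which splits glycerophosphocholine (-1.42), Prkab2, a subunit of AMP-activated kinase (-0.63), and Opa1, the fusion protein of the inner mitochondrial membrane (-0.59), all as log2 fold changes. Their adjusted p ran from 0.0155 for Cyp27a1 to 0.0493 for Me1. With 1 library left out they kept their calls in at most 3 of 6 fits, and Pnpla3 did in 3 and Dgat1 in 1. Nr0b2, a nuclear receptor that represses other receptors, had 11.2, 8.96 and 11 TPM in LV_H, against 15.1, 19.3 and 15.2 TPM in LV_N (log2 fold change -0.83 ± 0.12, adjusted p = 0.0101) and kept its call in 6.

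The alpha-1 adrenergic receptors Adra1b and Adra1d were the calls among 16 adrenergic and endothelin genes (median -0.05). Adra1b had 17.9, 12.1 and 20.9 TPM in LV_H, against 22.5, 26.5 and 26.6 TPM in LV_N (log2 fold change -0.74 ± 0.16, adjusted p = 0.0496), and Adra1d had 1.21, 0.393 and 0.807 TPM in LV_H, against 2.41, 1.59 and 2.23 TPM in LV_N (log2 fold change -1.57 ± 0.29, adjusted p = 0.032). Both were lowest in LV_H replicate 2, and neither was called without it; with 1 library left out Adra1b kept its call in 1 of 6 fits and Adra1d in 2. Edn1, the precursor of endothelin and a member through the LV_H libraries alone, had 1.61, 1.4 and 1.82 TPM in LV_H, against 0.934, 0.771 and 0.803 TPM in LV_N (log2 fold change 0.78 ± 0.18, adjusted p = 0.0655). Of 20 potassium and sodium channel genes 18 had a negative fold change (median -0.41, and -0.24 with library totals), 8 were lower and 1 higher at an unadjusted p under 0.05 (9.85% and 8.89% of all members), and none was called by the quasi-likelihood test, while the likelihood ratio test and DESeq2 each called 3 lower. Scn4b, an auxiliary sodium channel subunit, had 11.1, 7.69 and 18.8 TPM in LV_H, against 28.2, 29.8 and 26.6 TPM in LV_N (log2 fold change -1.34 ± 0.32, adjusted p = 0.0707). Hcn2, a pacemaker channel, had 29.7, 19.1 and 25.7 TPM in LV_H, against 41.4, 32.8 and 29.9 TPM in LV_N (log2 fold change -0.66 ± 0.17, adjusted p = 0.081), and Kcnd3, a channel of the transient outward current, had 0.924, 1.04 and 1.14 TPM in LV_H, against 1.19, 1.44 and 1.59 TPM in LV_N (log2 fold change -0.57 ± 0.20, adjusted p = 0.181). In these 3 genes the groups did not overlap. Outside the lists, and named after their values were seen, the orphan receptor Gpr22 had 5.15, 4.28 and 4.79 TPM in LV_H, against 10.5, 8.24 and 8.95 TPM in LV_N (log2 fold change -1.12 ± 0.14, adjusted p = 0.00747) and kept its call in 6 of 6 fits. Kcna7, a voltage-gated potassium channel, had 0.439, 0.338 and 0.524 TPM in LV_H, against 1.58, 1.64 and 2.05 TPM in LV_N (log2 fold change -2.14 ± 0.36, adjusted p = 0.0198) and kept it in 1, and Crhr2, the urocortin receptor, had a log2 fold change of -1.60 ± 0.34 and kept it in 1. Both were members through the LV_N libraries alone, so the detection rule itself favoured a lower level in LV_H. Gja3, a connexin, had 4.14, 3.5 and 4.93 TPM in LV_H, against 9.4, 7.7 and 12.4 TPM in LV_N (log2 fold change -1.39 ± 0.25, adjusted p = 0.0301) and kept it in 2.

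Both sides of the BCL2 family moved. Bok, a pore-forming promoter of apoptosis, had 28, 24.3 and 18.4 TPM in LV_H, against 6.74, 4.7 and 4.51 TPM in LV_N (log2 fold change 1.99 ± 0.23, adjusted p = 0.00393), a 3.97-fold rise that was called whichever LV library was left out. Bcl2, the founding inhibitor of apoptosis, had 1.05, 0.517 and 1.2 TPM in LV_H, against 1.69, 1.84 and 2.71 TPM in LV_N (log2 fold change -1.36 ± 0.28, adjusted p = 0.0466), and it kept its call in 1 of 6 fits. Bax had 20.9, 15.6 and 17.1 TPM in LV_H, against 11.6, 14 and 10.6 TPM in LV_N (log2 fold change 0.40 ± 0.11, adjusted p = 0.0991). With Bnip3 this made 2 genes higher and 1 lower of 16 (median 0.11). Of 16 genes around the ubiquitin ligases of muscle atrophy 2 fell and none rose (median -0.20, and -0.04 with library totals). Fbxo32, the ligase atrogin-1, had 14.7, 8.6 and 14.5 TPM in LV_H, against 18.6, 21.7 and 24.3 TPM in LV_N (log2 fold change -0.95 ± 0.15, adjusted p = 0.0155) and kept its call in 5 of 6 fits. Klhl33, a kelch-repeat adaptor, had 3.43, 1.29 and 2.6 TPM in LV_H, against 3.8, 5.76 and 6.43 TPM in LV_N (log2 fold change -1.32 ± 0.28, adjusted p = 0.0493) and kept it in 0. Klhdc8b, another kelch-repeat protein (named after its values were seen), rose, with 42.6, 41 and 44.6 TPM in LV_H, against 15.3, 16.4 and 13.9 TPM in LV_N (log2 fold change 1.34 ± 0.13, adjusted p = 0.00115; called in 6 of 6 fits). Ncam1, a cell adhesion molecule, rose 6.1-fold: it had 20.9, 14.7 and 9.04 TPM in LV_H, against 1.81, 2.1 and 2.56 TPM in LV_N (log2 fold change 2.61 ± 0.41, adjusted p = 0.0153), and it kept its call in 2. Ddit4l, an inhibitor of growth signalling through mTOR (named after its values were seen), had 19.6, 11 and 18.7 TPM in LV_H, against 28.2, 26.1 and 40.9 TPM in LV_N (log2 fold change -1.13 ± 0.19, adjusted p = 0.0182) and kept its call in 2.

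The remaining leading falls were in genes with various roles. Fam131c had the smallest p of the members: it had 9.28, 6.08 and 7.84 TPM in LV_H, against 26.7, 28.6 and 26.4 TPM in LV_N, 3.98-fold more in LV_N (log2 fold change -1.99 ± 0.11, adjusted p = 1.80e-05), with a narrow spread in both groups. Ddn, known as an actin-linked protein of podocytes and neurons, had 0.972, 0.654 and 1.11 TPM in LV_H, against 3.49, 2.65 and 4.02 TPM in LV_N (log2 fold change -2.05 ± 0.39, adjusted p = 0.0337). Stx7, a SNARE protein of late endosomes, had 16.7, 14.8 and 15.3 TPM in LV_H, against 35, 30.3 and 35.3 TPM in LV_N (log2 fold change -1.26 ± 0.19, adjusted p = 0.0144). Actr3b, a subunit of the complex that branches actin, had 6.49, 7.55 and 9.09 TPM in LV_H, against 16.9, 17.7 and 16 TPM in LV_N (log2 fold change -1.27 ± 0.18, adjusted p = 0.0107). Atp8a1, a phospholipid flippase, had a log2 fold change of -1.58 ± 0.31, and Igsf1, an immunoglobulin-family membrane protein, one of -1.29 ± 0.25. Fam131c kept its call in 6 of 6 fits with a library left out, Actr3b in 5, Stx7 in 3, Igsf1 in 1, and Ddn and Atp8a1 in 0, with adjusted p of up to 0.123. Pcp4, a small calmodulin-binding protein, was a leading rise with 14.7, 2.64 and 7.91 TPM in LV_H, against 1.29, 0.959 and 0.395 TPM in LV_N (log2 fold change 3.02 ± 0.62, adjusted p = 0.0449), called in 1 of 6 fits.

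Matrix and fibroblast genes leaned upward without a call. Of 42 matrix and crosslinking genes 40 had a positive fold change and the median was 0.56, and the 14 fibroblast markers were all positive with a median of 0.52. Of these lists 14 and 4 were higher at an unadjusted p under 0.05 and 1 and 0 lower (8.89% and 9.85% of all members), while the quasi-likelihood test called none. The likelihood ratio test called 3 matrix genes higher and DESeq2 4 higher and 1 lower, and neither called a fibroblast marker. The summed level of the matrix genes was 3478, 1728 and 1940 TPM in LV_H, against 1647, 1567 and 1683 TPM in LV_N, and that of the fibroblast markers 2425, 1356 and 1778 TPM in LV_H, against 1459, 1280 and 1410 TPM in LV_N. LV_H replicate 1 was thus the high library in both. Without it the medians were 0.20 and 0.21. Col1a1, a chain of the main fibrillar collagen, had 81.8, 29.6 and 35.9 TPM in LV_H, against 21.3, 26.3 and 23.1 TPM in LV_N (log2 fold change 0.84 ± 0.32, adjusted p = 0.208), and Col3a1 had 327, 124 and 158 TPM in LV_H, against 93.9, 103 and 100.5 TPM in LV_N (log2 fold change 0.82 ± 0.30, adjusted p = 0.189). Timp1, an inhibitor of matrix proteases, had 46.6, 16.9 and 17.1 TPM in LV_H, against 11.2, 11.7 and 9.82 TPM in LV_N (log2 fold change 1.07 ± 0.35, adjusted p = 0.149), and Fn1, fibronectin, had 14.1, 3.51 and 4.72 TPM in LV_H, against 2.87, 3.28 and 2.46 TPM in LV_N (log2 fold change 1.13 ± 0.46, adjusted p = 0.24). All 4 were split without overlap and highest in LV_H replicate 1. The 8 atrial markers summed to 1041, 412 and 492 TPM in LV_H, against 386, 362 and 339 TPM in LV_N, so atrial transcripts were high in the same library, and their part in the result was not tested. Thbs4 and Ltbp2, matrix genes that reached 1 TPM in fewer than 3 libraries, had 14, 0.74 and 2.88 TPM and 6.21, 0.646 and 0.681 TPM in LV_H, against 0.206, 0.423 and 0.129 TPM and 0.455, 0.531 and 0.337 TPM in LV_N. Fbn2 stayed under 1 TPM in all 6 libraries. The matrix protease Adamts19, outside the lists and named after its values were seen, rose: it had 10.1, 7.93 and 6.37 TPM in LV_H, against 3.23, 3.01 and 3.19 TPM in LV_N (log2 fold change 1.21 ± 0.19, adjusted p = 0.0155), and it kept its call in 2 of 6 fits.

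Cell cycle genes were mostly below detection. Of 32 cell cycle and mitosis genes 6 reached the detection rule, and none was called by the quasi-likelihood test, the likelihood ratio test or DESeq2 or was under an unadjusted p of 0.05 (median 0.29, and -0.05 without LV_H replicate 1).

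**Figure D4:**
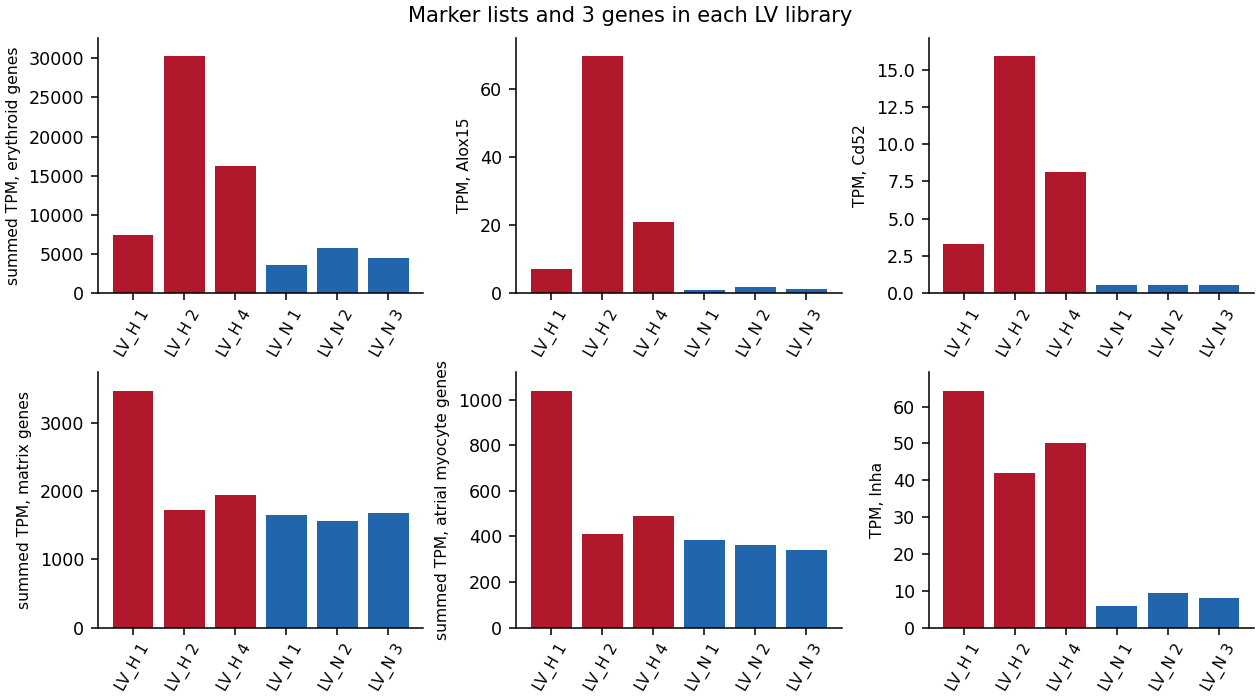
Summed TPM of the erythroid, matrix and atrial myocyte lists and TPM of Alox15, Cd52 and Inha (y axes, from 0) in each of the 3 LV_H (red) and 3 LV_N (blue) libraries. Erythroid genes, Alox15 and Cd52 are highest in LV_H replicate 2, matrix and atrial genes in LV_H replicate 1, and Inha is high in all 3 LV_H libraries.

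Red cell transcripts were more abundant in every hypoxic library. Hbb, the beta chain of hemoglobin, had 1603, 7093 and 4078 TPM in LV_H, against 789.5, 1325 and 974 TPM in LV_N (log2 fold change 2.00 ± 0.50, adjusted p = 0.0799). Ahsp, the chaperone of free alpha chains in red cell precursors, had 2.5, 26.3 and 6.76 TPM in LV_H, against 0.437, 0.752 and 0.796 TPM in LV_N (log2 fold change 4.16 ± 0.90, adjusted p = 0.053), and Alas2, which starts heme synthesis there, had 15.4, 56.5 and 30.0 TPM in LV_H, against 5.7, 8.88 and 8.12 TPM in LV_N (log2 fold change 2.11 ± 0.46, adjusted p = 0.053). The alpha globins Hba-a1 and Hba-a2 had log2 fold changes of 1.79 ± 0.45 and 2.05 ± 0.49, although reads can be shared between these near-identical copies. None of the 8 erythroid genes was called by the quasi-likelihood test, with 6 at an unadjusted p under 0.05, 5 of them higher. The likelihood ratio test and DESeq2 each called 5 higher and 1 lower, and without LV_H replicate 1 the quasi-likelihood test called 5 higher. Alox15, a lipoxygenase of reticulocytes and macrophages, had 7.2, 69.6 and 21 TPM in LV_H, against 1.04, 2 and 1.31 TPM in LV_N (log2 fold change 4.48 ± 0.89, adjusted p = 0.0396), and Cd52, a small surface protein of leukocytes, had 3.33, 15.9 and 8.16 TPM in LV_H, against 0.578, 0.581 and 0.547 TPM in LV_N (log2 fold change 3.93 ± 0.62, adjusted p = 0.0155). Cd52 and Ahsp were members through the LV_H libraries alone. Alox15 and Cd52 followed the red cell transcripts in their order across the 3 LV_H libraries, and the part of those transcripts in the result was not tested. Alox15 was not called without LV_H replicate 2, its highest library, and kept its call in 2 of 6 fits, beside 3 for Cd52 (adjusted p up to 0.15).

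Pan-leukocyte and macrophage genes leaned upward as groups. All 17 pan-leukocyte members had a positive fold change (median 0.43), 11 were higher at an unadjusted p under 0.05, and 2 were called, Itgb2 and Cd52, the second of them a member through the LV_H libraries alone. Itgb2, the beta-2 integrin subunit of leukocytes, had 3, 2.14 and 2.55 TPM in LV_H, against 0.973, 1.22 and 0.908 TPM in LV_N (log2 fold change 1.15 ± 0.17, adjusted p = 0.0129), and it kept its call in 4 of 6 fits with a library left out. Ptprc, which encodes CD45, had 2.29, 1.87 and 2.37 TPM in LV_H and 1.43, 1.63 and 1.98 TPM in LV_N (log2 fold change 0.22 ± 0.15, adjusted p = 0.524), and the groups overlapped. All 17 macrophage and monocyte members were positive too (median 0.53, and 0.23 without LV_H replicate 1). None of them was called by the quasi-likelihood test, the likelihood ratio test or DESeq2, and 4 were higher at an unadjusted p under 0.05. Csf1r, the receptor for macrophage growth factor, had 14.1, 6.25 and 7.79 TPM in LV_H, against 6.24, 4.61 and 4.7 TPM in LV_N (log2 fold change 0.65 ± 0.21, adjusted p = 0.147), Cd14 had 7.45, 3.33 and 2.7 TPM in LV_H, against 2.63, 1.86 and 2.58 TPM in LV_N (log2 fold change 0.73 ± 0.29, adjusted p = 0.23), and Cd33, which reached 1 TPM in 1 library, had 1.66, 0.302 and 0.645 TPM in LV_H, against 0.52, 0.424 and 0.132 TPM in LV_N. S100a9, a neutrophil protein, had 2.77, 4.18 and 3.74 TPM in LV_H, against 1.29, 1.19 and 0.767 TPM in LV_N (log2 fold change 1.59 ± 0.39, adjusted p = 0.0715), and Pf4, a platelet chemokine, had 58.5, 34.6 and 32.7 TPM in LV_H, against 17.6, 18.9 and 8.27 TPM in LV_N (log2 fold change 1.30 ± 0.34, adjusted p = 0.0981), both without overlap. Of 3 neutrophil members 2 had a positive and 1 a negative fold change, down to -0.78. Pf4 was the only platelet member. RT1-DMb, which loads peptides onto MHC class II, fell: it had 15.9, 12.7 and 13.9 TPM in LV_H, against 25.9, 26.5 and 26.2 TPM in LV_N (log2 fold change -1.05 ± 0.09, adjusted p = 5.00e-04) and was the 1 call among 18 complement and MHC class II genes (median 0.27). It was called whichever LV library was left out.

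Further genes named in the study's text were not called in the LV. Wipi1, of autophagy, had 41.1, 39.4 and 44.9 TPM in LV_H and 42.4, 44 and 49.9 TPM in LV_N (log2 fold change -0.27 ± 0.11, adjusted p = 0.25). Snap47 had 9.77, 7.5 and 7.34 TPM in LV_H and 6.84, 6.69 and 6.65 TPM in LV_N (log2 fold change 0.12 ± 0.09, adjusted p = 0.53), and Map4, a microtubule-associated protein, had 91.1, 60.8 and 81.4 TPM in LV_H and 60.2, 71 and 60.4 TPM in LV_N (log2 fold change 0.11 ± 0.10, adjusted p = 0.591). Adh7 stayed under 1 TPM in all 6 libraries.

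The RV of the same rats gave a second measurement of hypoxia. It had 1022 genes higher and 1045 lower in RV_H than in RV_N (7.43% and 7.6% of 13756), and these libraries share rats with the LV libraries. For the genes above the effects stood side by side as follows. Inha had log2 fold changes of 2.59 ± 0.17 in the LV and 2.44 ± 0.17 in the RV, Fam131c -1.99 ± 0.11 and -1.89 ± 0.11, Gpx1 1.28 ± 0.11 and 1.60 ± 0.12, Bok 1.99 ± 0.23 and 2.21 ± 0.23, and RT1-DMb -1.05 ± 0.09 and -1.03 ± 0.09. Other genes had values further apart. Nppa had 2.05 ± 0.40 in the LV and 5.13 ± 0.46 in the RV, Ctgf 2.07 ± 0.32 and 0.85 ± 0.31, Flnc 1.29 ± 0.22 and 0.17 ± 0.22, Dnajb5 0.97 ± 0.16 and 0.04 ± 0.16, and Gpr22 -1.12 ± 0.14 and -0.18 ± 0.14. Sik3, a salt-inducible kinase, had 0.71 ± 0.08 and 0.03 ± 0.08, Filip1 0.70 ± 0.09 and -0.00 ± 0.09, and Samd4a, a repressor of translation, 0.70 ± 0.14 and -0.21 ± 0.14, the first and last of these named after their values were seen.

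The difference between the effects in the ventricles passed the threshold in 0 of 13756 genes (0%) by edgeR's quasi-likelihood test, with a smallest adjusted p of 0.228 and 1046 genes at an unadjusted p under 0.05. The likelihood ratio test called 28 genes and DESeq2 17, and without LV_H replicate 1 the quasi-likelihood test called 13. These fits had no term for the rat, although each rat gave an LV and an RV library. With the rat as a block, an alternative chosen after the data were seen, the quasi-likelihood test called 0 genes, with a smallest adjusted p of 0.244 and 1696 genes at an unadjusted p under 0.05 (6 rats, 4 residual degrees of freedom). Of the 182 genes called in the LV, 39 had an unadjusted p under 0.05 for the difference, among them Sik3 (1.08e-04), Nppa (1.86e-04), Filip1 (2.31e-04), Gpr22 (5.75e-04), Samd4a (6.74e-04), Dnajb5 (0.00151), Flnc (0.00418) and Ctgf (0.0174), each an unadjusted p of the fit without the rat. The 182 genes were chosen by their LV effect, which is itself a part of this difference. Their count and p values are therefore no support for a difference between the ventricles.

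**Figure D5:**
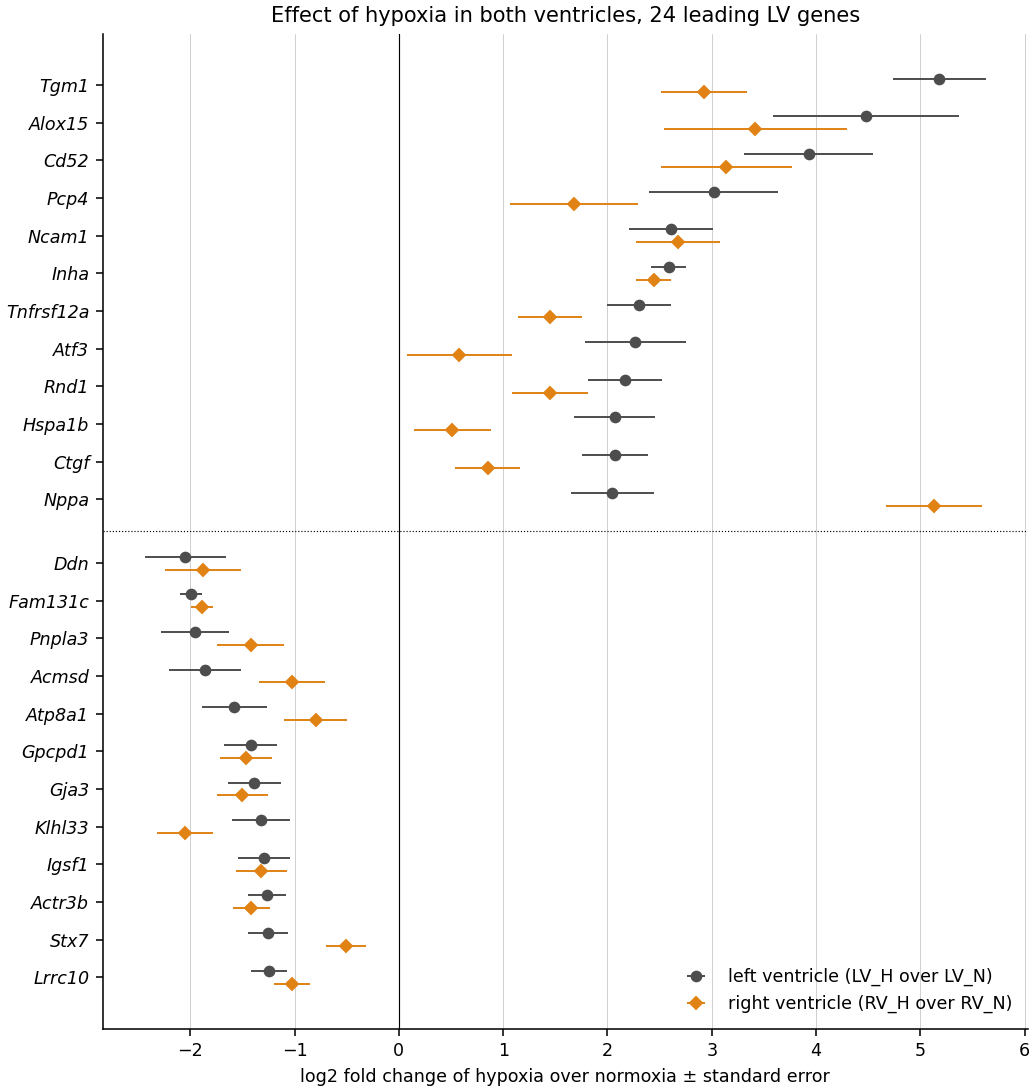
Log2 fold change of hypoxia over normoxia with its standard error (x axis) for the 12 largest rises (upper block) and 12 largest falls (lower block) of the LV, in the LV (dark circles) and in the RV (orange diamonds) of the same rats. Inha and Fam131c lie close in both ventricles, Nppa lies at 2.05 in the LV and 5.13 in the RV, and the difference between the ventricles passed the adjusted threshold of the quasi-likelihood test for 0 genes with all libraries.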

How the data were processed

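RNA of 12 ventricular samples, 6 of them LV, was sequenced as single reads of 50 bp from stranded polyadenylated libraries. The authors quantified transcripts with kallisto 0.43.1 against Ensembl annotation of Rnor_6.0 and summed transcripts to genes with tximport; FastQC and edgeR are also named in the submitters' processing notes. The deposited TPM values are levels per gene and library by the authors' tools. The deposited estimated counts are those TPM values times a constant per library, so they carry no length information beyond TPM and their totals are nominal depths. Entries named only by a number (27, 0.0408% to 0.0621% of a library) were left out.

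Counts were rounded, filtered with filterByExpr (13756 genes), scaled by TMM (0.853 to 1.206) and fitted in edgeR 4.0.16 (R 4.3.3; quasi-likelihood test), with 1 mean per group of ventricle and exposure over 12 libraries and 8 residual degrees of freedom. Standard errors were taken as |log2 fold change| over the root of F, and Benjamini-Hochberg adjusted p under 0.05 was the threshold. Library values used two-sided exact permutation tests (scipy 1.17.1). Alternatives were RLE factors, library totals, removal of mitochondrial transcripts, DESeq2 1.42.0, the likelihood ratio and exact tests in edgeR, other filters, the 6 LV libraries alone, limma 3.58.1 on log2(TPM + 1) and log2(TPM + 0.1), the replicate number as a block, and each LV library left out, and, for the difference between the ventricles and chosen after the data were seen, the rat as a block. In that fit each rat had a term and the LV minus RV difference was compared between exposures. The methods were tested on simulated data. The labels do not say that a number pairs rats across groups.

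Of 1006 list genes in 57 lists 969 matched and 787 were members. Genes named were the 12 largest rises and falls among called genes with a symbol, a mean of at least 2 TPM and no overlap, genes in the study's text, up to 4 members of each list with the smallest p, and members given as not differing; others are marked as named after their values were seen. The members and lists were chosen with earlier results of these data known. Lists are described by counts and medians with no test. The 3 samples of a group were separate rats. A few called genes are not reported here.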

Additional observations from a re-analysis of the deposited data

How the results depend on the processing

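For genes higher and lower in LV_H (96 and 92 of all genes tested), the counts were 174 and 28 with library totals, 279 and 259 by edgeR's likelihood ratio test, 222 and 205 by its exact test on the 6 LV libraries, 314 and 251 by DESeq2, 70 and 52 with no low-count filter, 17 and 12 with the 6 LV libraries alone, 194 and 35 by limma on log2(TPM + 1), 199 and 34 on log2(TPM + 0.1), and 104 and 15 on log2(TPM + 1) with no filter. They were 90 and 76 with RLE factors, 95 and 95 with mitochondrial transcripts removed and 111 and 112 with a filter on CPM. Leaving out 1 LV library at a time gave 17 to 89 higher and 13 to 68 lower. The interaction between ventricle and exposure called 28 genes in the likelihood ratio fit, 17 in DESeq2 and 0 to 13 with 1 LV library left out, and 0 with the rat as a block (chosen after the data were seen). Of the 24 leading genes 4 to 19 kept their call with 1 library left out, 9 with the 6 LV libraries alone and 12 to 24 under the others, and none changed direction. Hspb6, which was not called, ranged from -0.31 without LV_H replicate 2 to 0.25 without LV_H replicate 1 (0.08 with all), and so reversed. With the replicate number as a block the counts were 261 and 395. That block joined different rats, and only numbers 1 and 2 occurred in both LV_H and LV_N. No other pairing of LV_H with LV_N was tried. Residuals of same-numbered LV_H and LV_N libraries had correlations of -0.036 and -0.073, beside -0.087 to 0.067 for other pairs, and numbers name different rats. With 22538944 to 28804367 estimated counts a library and 3 rats a group, the median SE of a member was 0.14 on the log2 scale.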
